A study of Mus musculus with 12 samples.

Results

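The colony-stimulating factors and their receptors were followed in cultured mouse macrophages as 8 genes, chosen by symbol from the 55335 genes of one expression table. These were the ligand genes Csf1, Csf2 and Csf3 and the receptor genes Csf1r, Csf2ra, Csf2rb, Csf2rb2 and Csf3r. All 8 were in the table and all 8 passed the filter on low values, which kept 12622 genes. Colony-stimulating factors are secreted proteins that keep myeloid cells alive, make them divide and push them to mature. CSF1, also called M-CSF, signals through the receptor tyrosine kinase CSF1R and is the survival factor of macrophages. CSF2, or GM-CSF, binds an alpha chain encoded by Csf2ra together with the beta common chain encoded by Csf2rb, and CSF3, or G-CSF, binds CSF3R, the receptor best known from neutrophils. Both of these cytokine receptors signal through Janus kinases and STAT proteins. Mice carry a near copy of the beta chain gene, Csf2rb2, whose product serves interleukin-3.

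RNA was sequenced from bone marrow-derived macrophages (BMDMs) of wild-type C57BL/6 mice and of Nlrp3-/- mice, which lack the inflammasome sensor NLRP3 in the whole body. Mice were 8 weeks old, and their marrow was cultured for 7 days with 40 ng/ml of M-CSF, so every group was grown in the ligand of CSF1R. BMDMs of each genotype were left without stimulation (control) or were given lipopolysaccharide (LPS) and then ATP (LPS+ATP), which prime and trigger the NLRP3 inflammasome. Each of the 4 groups held 3 libraries. The sample labels give 4 hours of LPS and 30 minutes of ATP, whereas the methods of the study give longer times for both agents, so the times are uncertain. LPS and ATP were always given together and their effects cannot be told apart. The methods state in general terms that sample sizes count independent replicates, but the labels do not tie these libraries to separate mice or cultures, and p-values then measure only the spread between these libraries, which may be technical.

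Levels are given in the deposited unit, FPKM, which divides the fragments of a gene by its length and by the mapped total of the library. FPKM carries no read number, so the depth in reads is unknown. The spacing of the lowest values gave relative depths of 1.0 to 1.22, and Pearson's r between libraries of a group was 0.990 to 0.993 across the tested genes. Nlrp3 was listed at 0 in 6 of 6 Nlrp3-/- libraries and was 9.24 to 33.6 FPKM in wild-type libraries. Xist, expressed in female cells, was 32.8 to 56.3 FPKM with the Nlrp3-/- genotype and reached 0.0416 FPKM with the wild-type one. In 6 of 6 Nlrp3-/- libraries the values of 4 Y-linked genes (Uty, Kdm5d, Eif2s3y and Ddx3y) were 0. Nnt, which differs between C57BL/6 substrains and was looked up with its values known, was 4.09 to 10.3 FPKM in wild-type and 0.670 to 1.47 FPKM in Nlrp3-/- libraries. Genotype, donor sex and strain background cannot be told apart in any comparison of genotypes. All 8 macrophage markers looked up were at least 1 FPKM in every library.

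Ligand messages of this family are known for AU-rich elements, which are shown first. ATTTA is the AU-rich pentamer that destabilising proteins recognise in cytokine messages. In the GENCODE M21 annotation on GRCm38, the part of the message after the stop codon held 9 pentamers in 317 bases for Csf2, 6 in 669 bases for Csf3 and 4 in 2111 bases for Csf1. For comparison, the last bases of each message were taken at the same length, from genes with at least that many after the stop codon. The gene itself was included. At least as many pentamers as Csf2 were held by 0.0133% of 15074 genes, as Csf3 by 1.54% of 11434 and as Csf1 by 52.3% of 4190. Csf1r held 3 pentamers, and Csf2ra, Csf2rb, Csf2rb2 and Csf3r held 0. The 30-base window with the most pentamers in each ligand message is given with the pentamers in capitals, 5′ to 3′ on the strand of the gene.
Csf1 (minus strand, chr3:107741109-107741138): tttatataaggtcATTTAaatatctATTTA
Csf2 (minus strand, chr11:54247329-54247358): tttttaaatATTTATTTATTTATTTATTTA
Csf3 (plus strand, chr11:98702984-98703013): gatagtttATTTAtctctATTTAatATTTA

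Pentamers overlapped in the Csf2 window, and Csf2 also held 4 matches to the longer nonamer TTATTTATT. Of the 15074 genes compared with Csf2, itself included, 2.35% held this nonamer in their last 317 bases. The Csf1 and Csf3 stretches held 0 nonamers.

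Csf1 was the ligand gene with a level above 0 in every library, and the 250 bases before its start are shown for the motif in capitals. The window is RefSeq's on GRCm38.p6, on the minus strand, chr3:107760470-107760719, read towards the start.
Csf1 promoter: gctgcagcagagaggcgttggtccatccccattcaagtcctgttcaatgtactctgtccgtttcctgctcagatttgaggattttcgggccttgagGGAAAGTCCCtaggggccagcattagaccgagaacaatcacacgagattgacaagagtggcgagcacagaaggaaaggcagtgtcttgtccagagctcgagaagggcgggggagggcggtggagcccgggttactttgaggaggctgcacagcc

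The capitals mark a match to the NF-kB decamer on the strand opposite to the gene, between 154 and 145 bases before the start, and 3.9% of 32851 promoter windows held such a match on either strand. RefSeq windows were at hand for 5 of the 8 genes, namely Csf1, Csf2, Csf2ra, Csf2rb2 and Csf3r. The other motifs searched on both strands were AP-1 (TGANTCA, in 6.75% of windows), C/EBP (TTGCNNAA, in 9.56%), PU.1 (GAGGAAGT, in 2.44%) and the TATA box (TATAAA, in 12.4%). Csf2 held 1 C/EBP match, TTGCCCAA, between 145 and 138 bases before the RefSeq start, which lay 232 bases upstream of the GENCODE start. Neither match was measured as a bound site.

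The coding sequences of Csf2rb and Csf2rb2 were identical at 95.2% of 2631 aligned bases. The first 120 coding bases differ at 4 positions, in capitals, and are shown as an example of this similarity. Fragments from stretches without any difference can be assigned to either gene.
Csf2rb: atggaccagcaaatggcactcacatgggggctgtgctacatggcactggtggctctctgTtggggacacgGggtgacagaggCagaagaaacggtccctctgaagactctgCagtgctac
Csf2rb2: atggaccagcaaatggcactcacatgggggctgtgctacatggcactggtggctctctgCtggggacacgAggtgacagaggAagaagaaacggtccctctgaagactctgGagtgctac

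Of all 100-base stretches of the whole Csf2rb message, untranslated ends included, 6.96% occurred unchanged in Csf2rb2 messages. For the whole Csf2rb2 message, 7.20% occurred in Csf2rb messages. These shares were 18.4% and 19.0% for stretches of 50 bases, and 3.47% and 3.59% for stretches of 150 bases. The authors' treatment of shared fragments was not given in the sources used here, so the split between both genes is uncertain.

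Receptor genes were high and ligand genes low in unstimulated wild-type BMDMs. Per length, the mean level ran from Csf1r at 253 FPKM through Csf2ra at 70.4, Csf2rb2 at 39.2, Csf3r at 37.3 and Csf2rb at 22.9 to Csf1 at 9.48 FPKM, and the ranges of neighbours in that order were apart. Csf2 and Csf3 were listed at 0 in 3 of 3 of these libraries, whereas 0 of 10 housekeeping genes were at 0 in any library. Csf1r, the receptor that defines the macrophage lineage, was above at least 98.2% of the tested genes in every library of the study. After LPS+ATP, Csf3r stood above Csf2rb2 in wild-type BMDMs, at 75.3 against 69.7 FPKM, the reverse of the control order. In Nlrp3-/- BMDMs after LPS+ATP, Csf1 took the third place at 58.0 FPKM, just above Csf2rb2 at 57.1 FPKM, with ranges apart. Csf3r and Csf2rb did not differ beyond their spread in either Nlrp3-/- group.

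**Figure D1:**
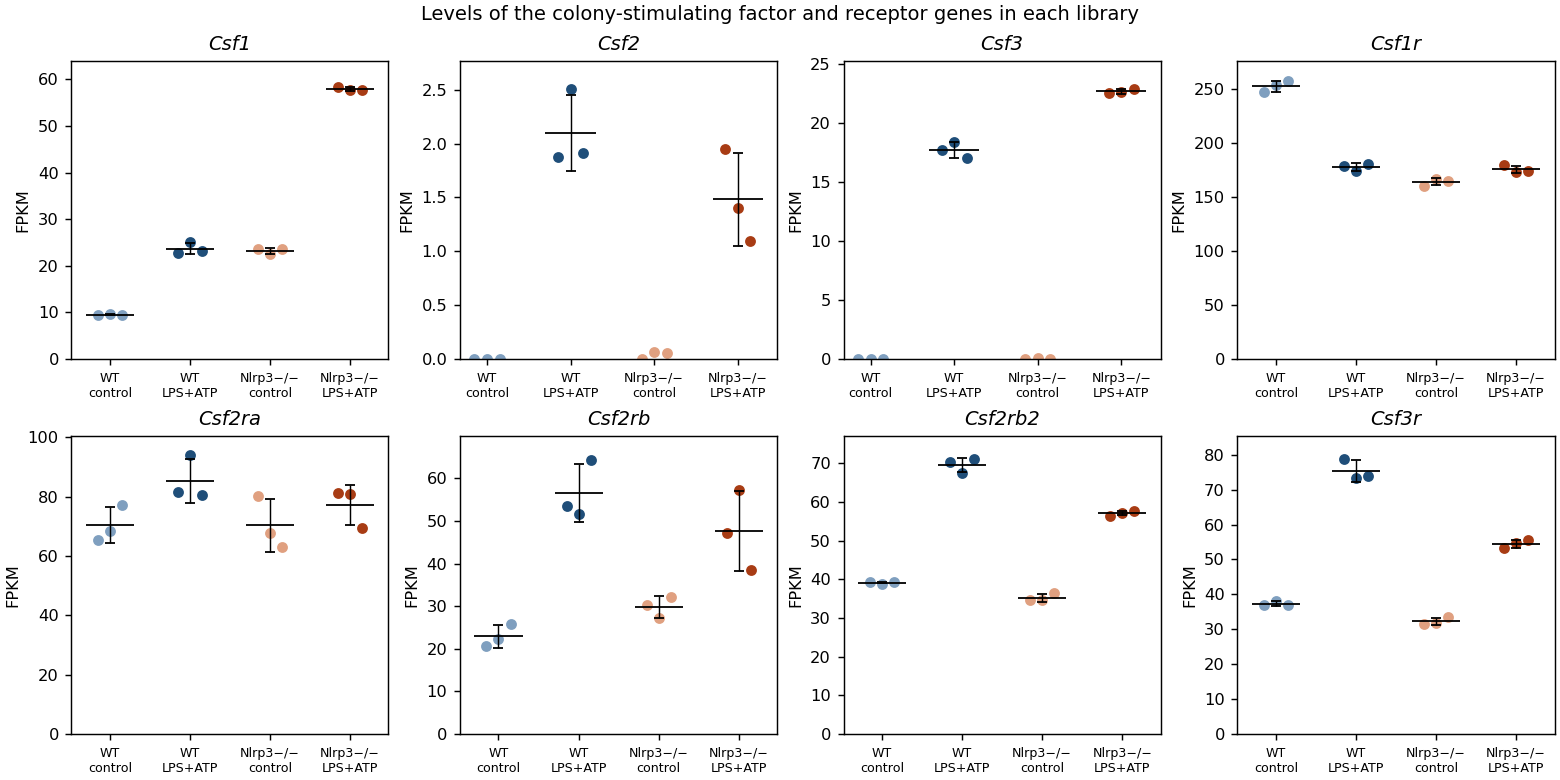
Level of each of the 8 genes in FPKM (vertical axes, linear and starting at 0) in the 3 libraries of each group. Points are libraries, lines are means and bars are SD, drawn only where no library was at 0. Csf2 and Csf3 lie at or near 0 in both control groups, and Csf1 in Nlrp3-/- controls overlaps wild-type BMDMs given LPS+ATP.

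Stimulation of wild-type BMDMs raised all 3 ligand genes. Differences were tested with limma on log2(FPKM + 1), and a gene was called where the Benjamini-Hochberg adjusted p was under 0.05 and the difference at least 1 in either direction. Of the 8 genes, 4 were called, all higher, where 19.4% of all tested genes were called, 8.25% higher and 11.2% lower. These were Csf1, Csf2, Csf3 and Csf2rb. By adjusted p alone, 7 of the 8 were higher and 1 was lower, against 76.4% of all tested genes, 23.3% being higher and 53.1% lower. The libraries of both groups did not overlap for 8 of 8 genes, against 78.1% of all tested genes. The median difference was 1.11 over the 8 genes and -0.25 over all tested genes. Csf2 and Csf3 passed the filter only through the stimulated groups and had to differ.

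Csf3, the gene of the factor that drives neutrophil production, showed the largest difference of the 8. It was listed at 0 in 3 of 3 wild-type controls and was 17.7, 18.4 and 17.0 FPKM with LPS+ATP. The difference was 4.23 on the log2(FPKM + 1) scale (SE 0.04, limma adjusted p = 1.02e-14), a scale that understates the change of low genes. No fold was formed against a group at 0. Csf2, the gene of GM-CSF, was listed at 0 in the same controls and reached 1.88, 2.51 and 1.91 FPKM. Its difference was 1.63 (SE 0.11, limma adjusted p = 1.42e-07), but its level stayed the lowest of the 8 genes in every stimulated library. An antisense gene that overlaps Csf2, Gm12223, was listed at 0 in every library. Csf1 was 9.43, 9.63 and 9.39 FPKM in wild-type controls and 22.8, 25.1 and 23.1 FPKM with LPS+ATP. Its mean was 2.50-fold higher and the difference was 1.23 (SE 0.04, limma adjusted p = 9.99e-11).

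Among the receptor genes, only Csf2rb was called with stimulation in wild-type BMDMs. Csf2rb was 20.6, 22.3 and 25.7 FPKM in controls and 53.6, 51.6 and 64.4 FPKM with LPS+ATP, 2.47-fold higher in the mean, with a difference of 1.27 (limma adjusted p = 5.76e-06). Csf3r was 36.9, 38.1 and 36.8 FPKM in controls and 78.9, 73.3 and 73.8 FPKM with LPS+ATP. Its ratio of means was 2.02 and its log2 difference 0.99 (limma adjusted p = 4.63e-10), just below the limit of 1. Its side of that limit hung on single libraries, as the difference was 1.01 without the second wild-type control library and 1.01 without the second or the third wild-type LPS+ATP library. Csf2rb2 was 39.3, 38.9 and 39.3 FPKM in controls against 70.4, 67.6 and 71.0 FPKM, a difference of 0.82 (limma adjusted p = 4.75e-10). Csf2ra was 65.4, 68.6 and 77.2 FPKM in controls and 81.5, 94.0 and 80.8 FPKM with LPS+ATP, a difference of 0.28 (limma adjusted p = 0.0264). It was 0.59 after median-ratio scaling, and it did not pass without the first or second control library or the second LPS+ATP library (limma adjusted p = 0.0935, 0.0686 and 0.106). Csf1r ran the other way. It was 248, 254 and 258 FPKM in controls and 179, 174 and 181 FPKM with LPS+ATP, 0.703 times the control mean, a difference of -0.51 (SE 0.03, limma adjusted p = 1.52e-08) that did not reach the fold limit. Hmgxb3, which overlaps Csf1r on the other strand, was between 2.13 and 3.49 FPKM in all libraries.

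Scaling between libraries moved these sizes. Median-ratio scaling shifted the median of all tested genes by 0.24 in the wild-type stimulation comparison, by 0.23 in the Nlrp3-/- one, and by -0.15 and -0.17 in the genotype comparisons without and with LPS+ATP. In wild-type, 1041 genes were called higher and 1411 lower as deposited, and 1391 and 896 after that scaling. In Nlrp3-/- BMDMs the split was 838 and 1036 as deposited and 1097 and 601 after scaling. For genotype it was 760 and 87 against 573 and 148 without stimulation, and 565 and 72 against 433 and 126 with LPS+ATP. Under median-ratio scaling Csf3r (1.31) and Csf2rb2 (1.13) passed the fold limit in wild-type, and Csf1r was still lower, by a difference of -0.19.

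**Figure D2:**
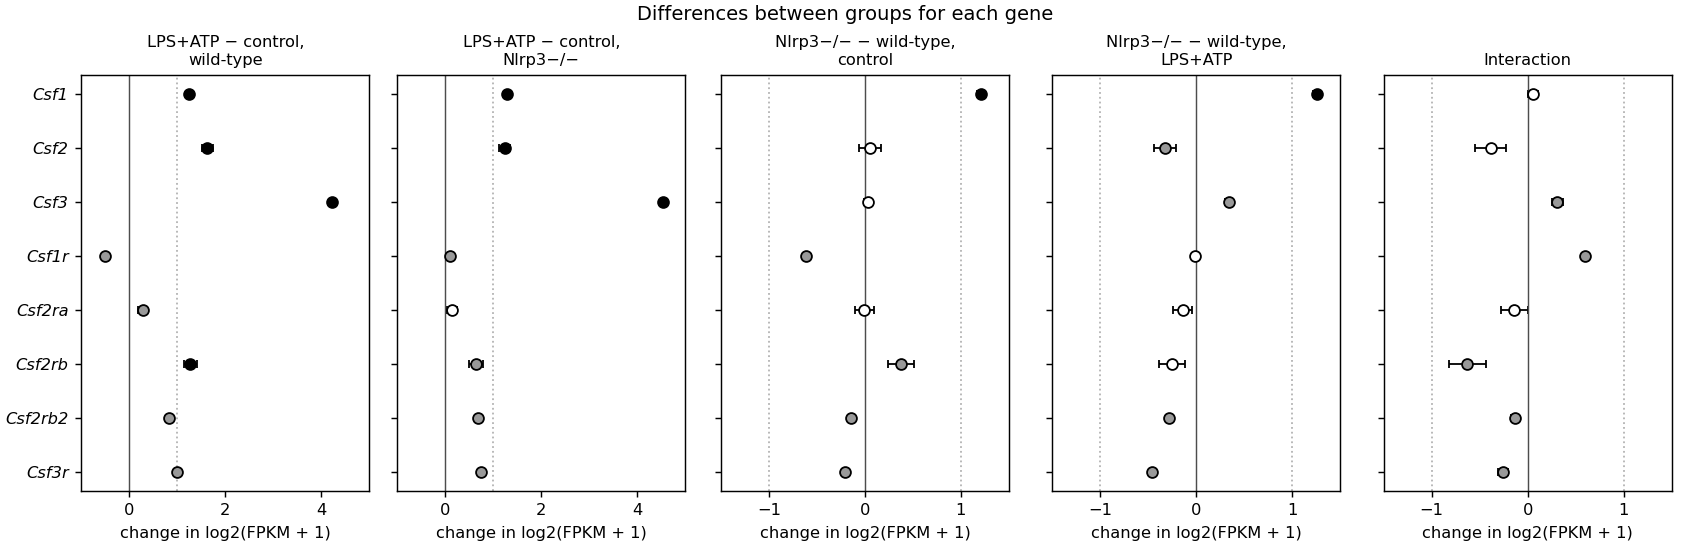
Difference in log2(FPKM + 1) with its standard error for each gene (rows) in the 5 comparisons (panels), with dotted lines at the fold limit of 1. Black points passed adjusted p and fold limit, grey points adjusted p alone, and white points neither. Csf1 is black in 4 of the 5 panels, and Csf1r lies at -0.51 with stimulation in wild-type and at 0.10 in Nlrp3-/- BMDMs.

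In Nlrp3-/- BMDMs the ligand genes rose with LPS+ATP as well, and the receptor genes stayed under the fold limit. The 3 genes called were Csf1, Csf2 and Csf3, all higher, where 14.8% of all tested genes were called, 6.64% higher and 8.21% lower. By adjusted p alone, 7 of the 8 were higher, against 74.3% in either direction (20.6% higher and 53.8% lower), and the libraries of both groups were apart for 7 genes, against 77.4%. The median difference was 0.71 over the 8 genes and -0.24 over all tested genes. As in wild-type BMDMs, Csf2 and Csf3 passed the filter only through the stimulated groups and had to differ. Csf3 was 0, 0.0347 and 0.0277 FPKM in controls and 22.5, 22.6 and 22.9 FPKM with LPS+ATP, a difference of 4.53 (limma adjusted p = 6.37e-15). Csf2 was 0, 0.0612 and 0.0591 FPKM in controls and 1.95, 1.40 and 1.10 FPKM with LPS+ATP, a difference of 1.24 (limma adjusted p = 1.84e-06). Csf1 was 23.5, 22.4 and 23.5 FPKM in controls and 58.4, 57.7 and 57.7 FPKM with LPS+ATP, again 2.50-fold higher, with a difference of 1.29 (limma adjusted p = 9.52e-11). For Csf1 the 3 libraries of each Nlrp3-/- group lay close together and far from the other group.

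Most receptor genes were higher with LPS+ATP in Nlrp3-/- BMDMs by adjusted p alone. Csf3r was 31.4, 31.9 and 33.4 FPKM in controls and 53.3, 54.6 and 55.5 FPKM with LPS+ATP, a difference of 0.74 (limma adjusted p = 8.74e-09). Csf2rb2 was 34.6, 34.6 and 36.4 FPKM against 56.5, 57.1 and 57.6 FPKM, a difference of 0.68 (limma adjusted p = 3.11e-09). Csf2rb was 30.3, 27.2 and 32.2 FPKM against 47.1, 57.3 and 38.4 FPKM, a difference of 0.64 (limma adjusted p = 0.00138), and its stimulated libraries varied more among themselves than those of Csf2rb2. Csf2ra was 80.2, 67.9 and 62.9 FPKM in controls and 81.4, 80.9 and 69.6 FPKM with LPS+ATP. These ranges overlapped and the difference of 0.14 (SE 0.10) did not pass (limma adjusted p = 0.231). It did pass after upper-quartile scaling at 0.33 (limma adjusted p = 0.0141), after median-ratio scaling at 0.43 (limma adjusted p = 0.00288) and without the first control library at 0.24 (limma adjusted p = 0.0465). Csf1r was 161, 167 and 165 FPKM in controls and 180, 174 and 174 FPKM with LPS+ATP, a difference of 0.10 (limma adjusted p = 0.00857). The size depended on the scaling, at 0.16 on the TPM scale, 0.29 after upper-quartile and 0.39 after median-ratio scaling.

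Whether stimulation acted to a different extent in each genotype was tested by the interaction of both factors, with positive values where the change was larger in Nlrp3-/- BMDMs. None of the 8 genes was called in this limma fit (0 of 8, against 2.15% of all tested genes, 0.721% higher and 1.43% lower), 5 had an adjusted p under 0.05, 2 higher and 3 lower, against 27.7% (14.7% higher and 13% lower), and 6 an unadjusted p under 0.05. For Csf1r the interaction was 0.60 (SE 0.04, limma adjusted p = 1.5e-06), the difference between -0.51 in wild-type and 0.10 in Nlrp3-/- BMDMs. Its wild-type control libraries stood above all 9 other libraries, which ranged from 161 to 181 FPKM. The interaction was -0.63 for Csf2rb (SE 0.19, limma adjusted p = 0.0332), -0.26 for Csf3r (limma adjusted p = 0.00396) and -0.13 for Csf2rb2 (limma adjusted p = 0.0393). The term of Csf3r passed in 12 of 12 fits that left out 1 library, whereas that of Csf2rb failed in 7 of them (limma adjusted p up to 0.0752) and that of Csf2rb2 in 8 (up to 0.0896). With the replicate number as a block Csf2rb did not pass (limma adjusted p = 0.0558), and Csf2rb2 did not pass on the TPM scale (limma adjusted p = 0.0743) or without the variance trend (limma adjusted p = 0.0862). For Csf3 it was 0.31 (limma adjusted p = 0.00275), but it was 0.09 with a pseudocount of 0.1 and 0.11 under median-ratio scaling, and did not pass in either (limma adjusted p = 0.711 and 0.234). Csf1 gave 0.05 (SE 0.05, limma adjusted p = 0.527), Csf2 -0.38 (SE 0.16, limma adjusted p = 0.107) and Csf2ra -0.14 (SE 0.14, limma adjusted p = 0.521). That of Csf2 passed after median-ratio scaling at -0.53 (limma adjusted p = 0.0357) and without the first Nlrp3-/- LPS+ATP library at -0.52 (limma adjusted p = 0.0163).

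Between genotypes, Csf1 was the gene that differed most among the 8. Without stimulation it was 23.5, 22.4 and 23.5 FPKM in Nlrp3-/- BMDMs and 9.43, 9.63 and 9.39 FPKM in wild-type BMDMs, 2.44-fold higher in the mean, with a difference of 1.20 (limma adjusted p = 6.28e-10). These values overlapped those of wild-type BMDMs after LPS+ATP, whose 3 libraries ranged from 22.8 to 25.1 FPKM. With LPS+ATP, Csf1 was 57.7 to 58.4 FPKM in Nlrp3-/- and 22.8 to 25.1 FPKM in wild-type BMDMs, 2.45-fold higher, with a difference of 1.26 (limma adjusted p = 7.84e-10). Csf1 was the 1 gene of the 8 called in each genotype comparison, where 6.71% of all tested genes were called without stimulation and 5.05% with LPS+ATP, 6.02% and 4.48% being higher and 0.689% and 0.57% lower. The ranges of Csf1 were apart in both comparisons. The same was true of 5 of the 8 genes without stimulation, against 56% of all tested genes, and of 4 with LPS+ATP, against 57.9%. By adjusted p alone, 5 of the 8 differed in each comparison, 2 higher and 3 lower, against 47.8% of all tested genes (33.3% higher and 14.5% lower) without stimulation and 48.5% (35.9% and 12.6%) with LPS+ATP.

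Csf1r, Csf3r and Csf2rb2 were lower in Nlrp3-/- controls by adjusted p alone, and Csf2rb was higher. Csf1r was 161 to 167 FPKM in Nlrp3-/- and 248 to 258 FPKM in wild-type controls, 0.650 times the wild-type mean, a difference of -0.62 (limma adjusted p = 1.04e-08). With LPS+ATP its ranges overlapped, at 174 to 180 FPKM in Nlrp3-/- and 174 to 181 FPKM in wild-type BMDMs, and the difference was -0.02 (SE 0.03, limma adjusted p = 0.653). That difference depended on the scaling, since it was -0.12 after upper-quartile scaling (limma adjusted p = 0.0146) and -0.23 after median-ratio scaling (limma adjusted p = 4.2e-05). Csf3r was lower by -0.20 without stimulation (limma adjusted p = 0.000818) and by -0.46 with LPS+ATP (limma adjusted p = 1.42e-06), where its means were 54.5 and 75.3 FPKM. Csf2rb2 differed by -0.15 (limma adjusted p = 0.0018) and -0.28 (limma adjusted p = 1.5e-05) in the same order. Csf2rb was 27.2 to 32.2 FPKM in Nlrp3-/- against 20.6 to 25.7 FPKM in wild-type controls, a difference of 0.37 (limma adjusted p = 0.0433). It no longer passed after upper-quartile scaling (0.34, limma adjusted p = 0.0761), after median-ratio scaling (0.18, limma adjusted p = 0.305), with the replicate number as a block (limma adjusted p = 0.0666) or in 6 of 12 fits that left out 1 library (limma adjusted p up to 0.136). With LPS+ATP it was -0.26 (SE 0.14, limma adjusted p = 0.15), but -0.47 after median-ratio scaling (limma adjusted p = 0.0134) and -0.40 without the second Nlrp3-/- LPS+ATP library (limma adjusted p = 0.0272). Csf2ra differed by -0.01 (SE 0.10, limma adjusted p = 0.973) without stimulation and by -0.14 (SE 0.10, limma adjusted p = 0.268) with LPS+ATP, where median-ratio scaling gave -0.36 (limma adjusted p = 0.0117). Among the other ligand genes, Csf3 with LPS+ATP was 22.5 to 22.9 FPKM in Nlrp3-/- and 17.0 to 18.4 FPKM in wild-type BMDMs, a difference of 0.34 (limma adjusted p = 4.79e-05) that was 0.13 after median-ratio scaling (limma adjusted p = 0.0256). Csf2 gave -0.33 (limma adjusted p = 0.0353) there, although its ranges overlapped at 1.10 to 1.95 and 1.88 to 2.51 FPKM, and -0.50 with a pseudocount of 0.1, where it did not pass (limma adjusted p = 0.132). It did not pass either on the TPM scale (-0.43, limma adjusted p = 0.0639), without a filter on low values (limma adjusted p = 0.085), in a fit of the compared groups alone (limma adjusted p = 0.101), or when 1 stimulated library was left out, namely wild-type replicate 2, Nlrp3-/- replicate 2 or Nlrp3-/- replicate 3 (limma adjusted p = 0.137, 0.0884 and 0.136).

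Markers of other cells also moved with genotype. The 7 markers of fibroblasts or stromal cells, a known source of CSF1 in bone marrow, summed to 162 to 168 FPKM in wild-type controls, 191 to 193 in wild-type BMDMs with LPS+ATP, 1188 to 1205 in Nlrp3-/- controls and 927 to 942 in Nlrp3-/- BMDMs with LPS+ATP. Of these 7, 6 were called higher in Nlrp3-/- BMDMs without stimulation and 5 with LPS+ATP, where 6.02% and 4.48% of all tested genes were, and 0 of them were at 0. The sum is mostly collagen. With stimulation of Nlrp3-/- BMDMs 0 of the 7 were called, and by adjusted p alone 3 were higher (Pdgfra by 0.59, Pdgfrb by 0.57 and Dcn by 0.24) and 3 lower (Col3a1 by -0.87, Col1a1 by -0.36 and Col1a2 by -0.33). In wild-type 6 were higher and 1 lower by adjusted p alone. Over all tested genes, 20.6% were higher and 53.8% lower by adjusted p alone in Nlrp3-/- BMDMs, and 23.3% and 53.1% in wild-type. The 10 markers of granulocytes and their precursors, the cells in which CSF3R is best known, summed to 338 to 375 FPKM in wild-type controls and 1860 to 1911 in Nlrp3-/- controls, and to 110 to 127 and 494 to 525 with LPS+ATP. All 9 of these that were tested were called higher in Nlrp3-/- controls, where Csf3r was lower, against 6.02% of all tested genes. Their part in the differences of Csf1, Csf3r and the other genes was not tested. In bulk RNA, fewer cells of a type and less RNA per cell cannot be told apart.

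**Figure D3:**
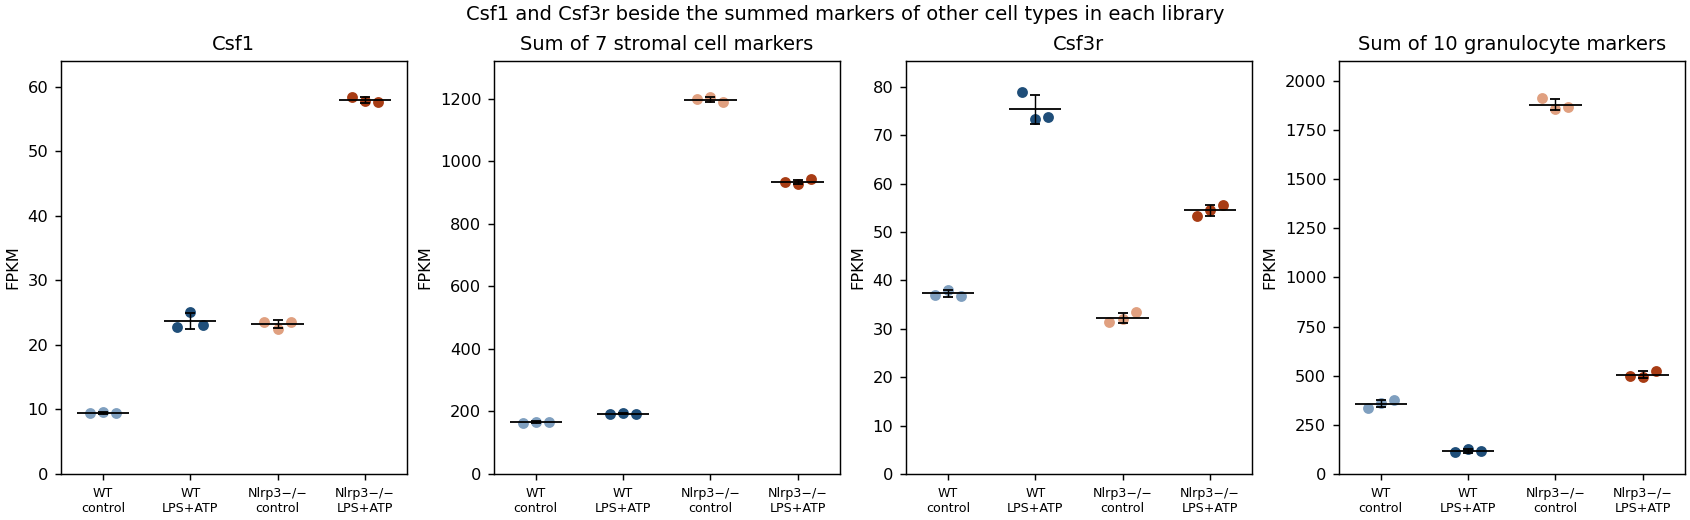
Level of Csf1 and Csf3r and the summed level of 7 stromal and of 10 granulocyte markers, all in FPKM on linear axes from 0, in the 3 libraries of each group. Points are libraries, lines are means and bars are SD. Stromal markers lie between 1188 and 1205 in Nlrp3-/- controls and at most at 193 in wild-type libraries, and the Csf3r points of Nlrp3-/- controls lie below those of wild-type controls while the granulocyte points lie above.

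Endothelial markers (3 genes) summed to 3.96 to 4.99 FPKM in wild-type and 7.63 to 11.1 FPKM in Nlrp3-/- libraries. Of the 3, 2 were called higher in Nlrp3-/- controls, against 6.02% of all tested genes, whereas Kdr was lower there by adjusted p alone (-0.21, limma adjusted p = 0.0319). With LPS+ATP 0 of the 3 were called between genotypes. Mast cell and basophil markers (3 genes), cells in which beta chain receptors are used, summed to 0.377 to 1.86 FPKM in wild-type and 3.60 to 10.3 FPKM in Nlrp3-/- libraries. Only 2 of the 3 were tested. Between genotypes, Mcpt8 differed by 2.02 without stimulation and 1.89 with LPS+ATP. Cpa3 differed by 0.95 without stimulation and by 0.01 with LPS+ATP, where it did not pass (SE 0.12, limma adjusted p = 0.947). The sums stayed at or below 0.331 FPKM for T and NK cells, 1.91 FPKM for B cells and 0.787 FPKM for dendritic cells, each over 3 genes. The 8 macrophage markers, of which Lyz2 makes up most, summed to 19825 to 20999 FPKM in wild-type and 18972 to 19216 FPKM in Nlrp3-/- controls, and to 11627 to 11695 and 10957 to 11205 FPKM with LPS+ATP. Csf1r is not among these 8 markers. In controls, 5 of them were lower in Nlrp3-/- than in wild-type BMDMs by adjusted p alone and 0 were higher, although 0 were called. Over all tested genes 14.5% were lower and 33.3% higher. The 5 were Cd68 (-0.73), Mrc1 (-0.60), Fcgr1 (-0.40), Adgre1 (-0.36) and Cd14 (-0.21). With LPS+ATP, 5 were also lower and 0 higher, with Mertk (-0.17) in place of Cd14, against 12.6% and 35.9% of all tested genes. Csf1r differed by -0.02 there. The part of these markers in the lower Csf1r of Nlrp3-/- controls was not tested.

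Ligand and receptor levels were also set against each other within each library. The ratio of Csf1 to Csf1r was 0.0364 to 0.0381 in wild-type controls, 0.128 to 0.144 in wild-type BMDMs with LPS+ATP, 0.134 to 0.146 in Nlrp3-/- controls and 0.325 to 0.333 in Nlrp3-/- BMDMs with LPS+ATP. Only the middle ranges overlapped. With LPS+ATP the ratio of Csf3 to Csf3r was 0.225 to 0.251 in wild-type and 0.412 to 0.421 in Nlrp3-/- BMDMs. The ratio of Csf2 to Csf2ra stayed at or below 0.0267 in every library.

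Both beta chain genes together had a mean of 62.0 ± 2.69 FPKM in wild-type controls, 126 ± 8.29 in wild-type BMDMs with LPS+ATP, 65.1 ± 3.45 in Nlrp3-/- controls and 105 ± 9.23 in stimulated Nlrp3-/- BMDMs (n = 3 each, with SD). Tested as one gene, the sum rose with stimulation by 1.01 in wild-type (limma adjusted p = 9.08e-08) and differed by 0.67 between LPS+ATP and control in Nlrp3-/- BMDMs (limma adjusted p = 3.84e-06), an interaction of -0.34 (limma adjusted p = 0.0233). With LPS+ATP it was lower in Nlrp3-/- than in wild-type BMDMs, by -0.27 (limma adjusted p = 0.0068). The ratio of Csf2rb to Csf2rb2 was 0.525 to 0.654 in wild-type controls and 0.761 to 0.907 with LPS+ATP. In Nlrp3-/- BMDMs it was 0.785 to 0.883 in controls and 0.667 to 1.00 with LPS+ATP. Without stimulation the sum did not differ between genotypes beyond its spread, at 0.07 (SE 0.07, limma adjusted p = 0.446), although Csf2rb was higher and Csf2rb2 lower when each was taken by itself.

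**Figure D4:**
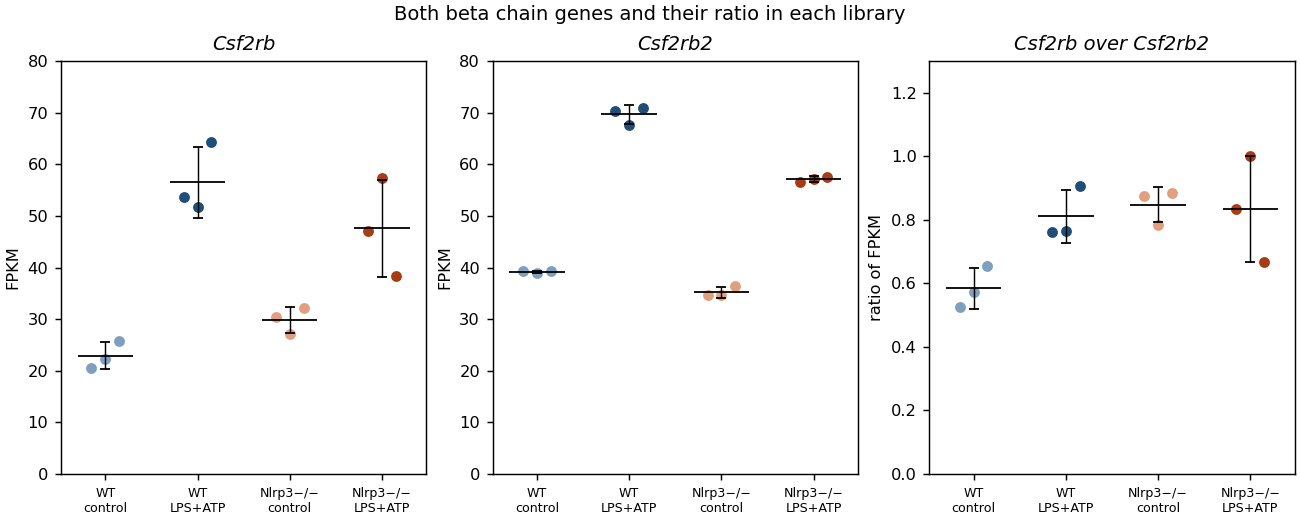
FPKM of Csf2rb and of Csf2rb2 and the ratio of both (unitless) in the 3 libraries of each group, on linear axes from 0. Points are libraries, lines are means and bars are SD. Csf2rb2 libraries lie close together in each group, whereas Csf2rb ran from 38.4 to 57.3 in Nlrp3-/- BMDMs with LPS+ATP.

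The other ligands and chains of these receptors were mostly absent or low. Il3 was listed at 0 in every library, Il5 reached at most 0.0957 FPKM and Il5ra at most 0.190 FPKM. Il34, the second ligand of CSF1R, was 0.987 to 1.72 FPKM in wild-type controls and 0.251 to 0.552 FPKM with LPS+ATP. In Nlrp3-/- BMDMs Il34 was 1.77 to 2.28 FPKM in controls and 0.855 to 1.49 FPKM with LPS+ATP. Il3ra, the alpha chain of the interleukin-3 receptor, was 8.85 to 12.1 FPKM in all libraries. Of the 5 genes in this list 2 were tested and 0 called in any comparison. Both were lower with stimulation by adjusted p alone in wild-type, Il34 by -0.81 and Il3ra by -0.29.

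Among the genes that act below the cytokine receptors, Socs1, Socs3 and Jak2 rose most. Of the 15 tested genes of the JAK-STAT arm, 6 were called higher and 0 lower in wild-type and 4 higher and 0 lower in Nlrp3-/- BMDMs, with list medians of 0.68 and 0.51. Over all tested genes 8.25% were called higher and 11.2% lower in wild-type and 6.64% and 8.21% in Nlrp3-/- BMDMs, with medians of -0.25 and -0.24. Socs1 and Socs3, which encode feedback inhibitors of cytokine receptors, had the largest differences of the list. Socs1 went from 0.483 to 0.731 FPKM in wild-type controls to 27.4 to 29.2 FPKM with LPS+ATP, a log2 difference of 4.21 (limma adjusted p = 8.15e-13). Socs3 went from 8.26 to 9.37 FPKM to 158 to 161 FPKM, a log2 difference of 4.02. Jak2, the kinase bound to the beta common chain, was 12.2 to 13.6 FPKM in wild-type controls and 102 to 108 FPKM with LPS+ATP, a log2 difference of 2.94. The transducers Stat5a (-0.44) and Stat5b (-0.55) were not called. In the interaction, 1 gene of this list, Socs3, was called at -1.17, and 9 of 15 had a lower value by adjusted p alone, where 13% of all tested genes did.

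Of the 27 tested CSF1R signalling genes, 2 were called higher and 9 lower in wild-type, and 1 higher and 5 lower in Nlrp3-/- BMDMs, with list medians of -0.37 and -0.53. The whole table also had more genes called lower than higher (11.2% and 8.25% in wild-type, 8.21% and 6.64% in Nlrp3-/- BMDMs), a tilt that turned under median-ratio scaling. Src, which encodes a tyrosine kinase, rose by 1.63 in wild-type. Ccnd1, the cyclin that growth factors induce, was 14.6 to 16.4 FPKM in wild-type controls and 1.69 to 1.94 FPKM with LPS+ATP, a log2 difference of -2.57. Bcl2l11 (-1.55), which encodes the death protein BIM, and Tyrobp (-1.54), an adaptor for macrophage receptors, also fell. Adam17, whose protease cuts CSF1R from the cell surface, had a difference of 0.67 in wild-type and 0.71 in Nlrp3-/- BMDMs and was not called. Between genotypes, Src was called higher in Nlrp3-/- controls by 1.24 and Myc higher with LPS+ATP by 1.20.

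Transcription factors known to act on these genes moved in both directions. Of 16 tested, 4 were called higher and 2 lower in wild-type and 5 higher and 2 lower in Nlrp3-/- BMDMs, against 19.4% and 14.8% of all tested genes called in either direction. Cebpb, a factor of emergency granulopoiesis, was 72.6 to 74.7 FPKM in wild-type controls and 382 to 405 FPKM with LPS+ATP, a log2 difference of 2.41. Egr1 (3.13) and Junb (1.65) rose with it. Cebpa fell by 2.31 on the log2 scale (SE 0.61, limma adjusted p = 0.00464), with 1 stimulated library at 1.10 and the others at 14.5 and 16.3 FPKM. Spi1, which encodes the myeloid factor PU.1, differed by 0.14 with stimulation of wild-type and 0.09 of Nlrp3-/- BMDMs. Egr1 (1.60) and Klf4 (1.11) were called higher in Nlrp3-/- controls, and Egr1 (1.52) and Fos (1.21) with LPS+ATP.

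Genes of proteins that bind cytokine messages, at AU-rich elements or elsewhere, were also followed at the RNA level. Of 8 tested, 1 was called higher and 2 lower in wild-type, and 2 higher and 2 lower in Nlrp3-/- BMDMs, where 19.4% and 14.8% of all tested genes were called. Zc3h12a, which encodes the RNase Regnase-1, rose by 2.09 in wild-type. Zfp36l1 was 30.9 to 33.9 FPKM in wild-type controls and 3.84 to 4.31 FPKM with LPS+ATP, a log2 difference of -2.69, and Zfp36l2 fell by 1.62 on the log2 scale. Zfp36, the gene of tristetraprolin, differed by 0.59 in wild-type and was called at 1.07 in Nlrp3-/- BMDMs. Zfp36l1 was higher by 1.06 in Nlrp3-/- BMDMs than in wild-type with LPS+ATP.

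**Figure D5:**
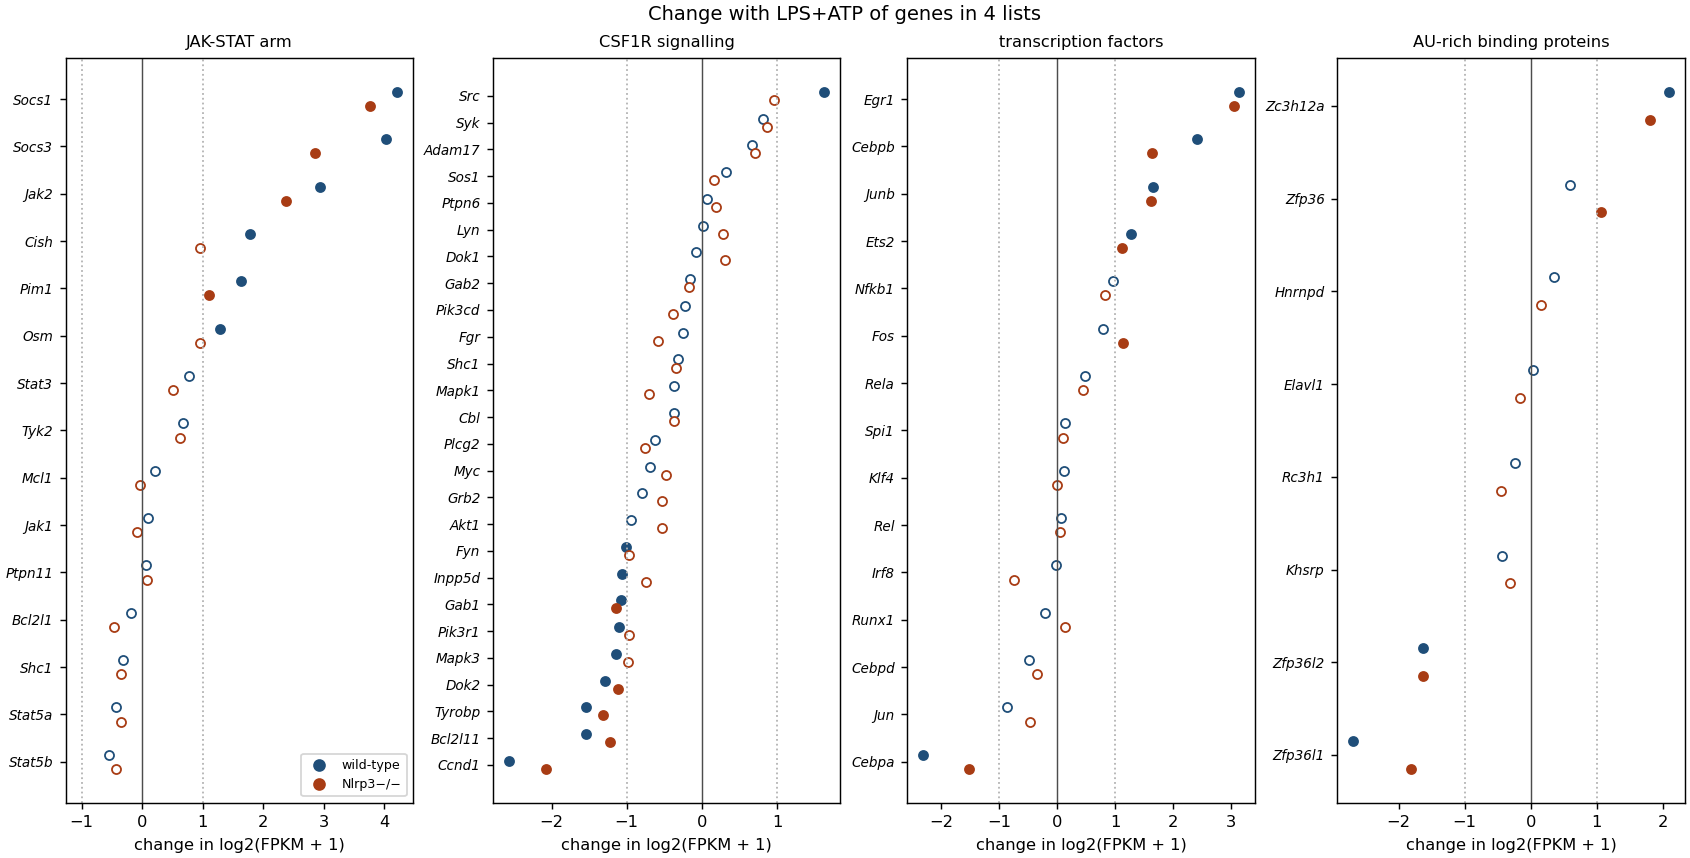
Difference in log2(FPKM + 1) between LPS+ATP and control for tested genes of 4 lists (rows), in wild-type (blue) and Nlrp3-/- BMDMs (red). Filled points passed adjusted p and the fold limit of 1, marked by dotted lines. Socs1, Socs3 and Jak2 lie at the top of the JAK-STAT list, and Ccnd1 at the bottom of the CSF1R list.

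The genes whose pattern was most like that of each member were found by Pearson's r of log2(FPKM + 1) over the 12 libraries, which fall into 4 groups, so that r mostly describes the group means. Nearest to Csf1 were Mars (r = 0.997), Sod3 (r = 0.996) and Sec24d (r = 0.996). Cxcl10 (r = 1.00) and Slc1a2 were nearest to Csf3, and Gm13822 (r = 0.992), Epha4 and Gm44339 to Csf2. The pattern of Csf1r was closest to Cgn (r = 0.982), Scpep1 (r = 0.975) and Gm28188 (r = 0.960). Csf2rb2 and Csf3r shared 2 of their 3 nearest genes, Fcgr1 and Ifit1bl1, and the remaining ones were Bcl2a1b for Csf2rb2 and Stra6l for Csf3r. For Csf2rb these were Aox1 (r = 0.971), Cdc14a and Fzd7, and for Csf2ra, which varied least between groups, Abcf1 (r = 0.924), Gm14270 and Mir6985.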

How the data were processed

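RNA of 12 BMDM libraries, 3 per group, was sequenced from total RNA with a TruSeq kit. The authors deposited 1 table of FPKM per gene and library. The submitters' processing notes name GRCm39 and DESeq2 1.24.0, and the aligner, counting tool, annotation and strand setting are not given in the sources used here. Every value column was matched to its sample by name (0 unmatched).

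Because FPKM are not counts, the 12622 of 55335 genes that reached FPKM 1 in 3 or more libraries were tested with limma 3.58.1 (R 4.3.3) on log2(FPKM + 1), with one mean per group over all 12 libraries and a variance trend. The fit was tested on simulated data. P-values were adjusted by Benjamini-Hochberg over all tested genes, and a call needed an adjusted p under 0.05 and a log2 difference of at least 1. An exact permutation test of 3 against 3 libraries cannot go below p = 0.1 and was not used.

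The 8 members and all lists were chosen with earlier results of these data known. All members were described, and of each list up to 3 called genes per direction with stimulation in wild-type and 2 per genotype comparison were named, besides genes whose part in CSF signalling is described above, which were chosen after their values were seen. For each member the 3 genes with the highest r were named. A few genes that these rules select are not reported here. Positions, coding sequences and stretches after the stop codon came from GENCODE M21 on GRCm38 (55154 of 55335 identifiers matched), and promoter windows from RefSeq. The build of the reference differs from that of the notes and served for annotation only. Python 3.11.15, pandas 2.3.3, Biopython 1.88 and matplotlib 3.10.9 were used. Alternatives were other pseudocounts, filters, scalings, fold limits, variance models, a replicate block, the summed beta chains and each library left out.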

Additional observations from a re-analysis of the deposited data

Results flagged for a closer look

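By the adjusted p of the interaction term in limma, the change with LPS+ATP differed between wild-type and Nlrp3-/- BMDMs for 5 of the 8 genes, where 27.7% of all tested genes had such a term. The term was 0.60 for Csf1r and -0.26 for Csf3r, and both passed in each of the 12 fits that left out 1 library. It was 0.31 for Csf3, which did not pass with a pseudocount of 0.1 (limma adjusted p = 0.711) or after median-ratio scaling (limma adjusted p = 0.234). It was -0.63 for Csf2rb, which did not pass with the replicate block (limma adjusted p = 0.0558) or in 7 of those 12 fits, and -0.13 for Csf2rb2, which did not pass on the TPM scale (limma adjusted p = 0.0743) or in 8 of them. Groups of 3 libraries were not searched for outlying libraries.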

How the results depend on the processing

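With no fold limit, the number of the 8 genes that passed was 8 and 7 with stimulation in wild-type and Nlrp3-/- BMDMs, 5 and 5 between genotypes without and with LPS+ATP, and 5 for the interaction, in place of 4, 3, 1, 1 and 0. The other settings moved none of these counts by over 1.5 times. Of the differences of single genes outside the leave-one-out fits, 364 kept their direction and side of the call, 29 newly passed and 4 turned. Most of the 29 newly passed only because the fold limit was dropped. The others of the 29 were differences of Csf3r and Csf2rb2 with stimulation. Those that turned were Csf2ra between genotypes without stimulation on the TPM scale (0.00097), Csf2rb2 there when summed with Csf2rb (0.068), Csf1r between genotypes with LPS+ATP on the TPM scale (0.0055) and the interaction of Csf1 after upper-quartile scaling (-0.0055), none of which was called. With 1 library left out, 474 stayed, 3 newly passed and 3 turned, all of Csf2ra between genotypes without stimulation, which ranged from -0.10 to 0.07, with 0.06 without the third wild-type control, 0.02 without the second and 0.070 without the third Nlrp3-/- control. Csf3r with stimulation in wild-type ranged from 0.96 to 1.01 in these fits. It passed the fold limit with a pseudocount of 0.1 (1.01), on the TPM scale (1.05) and after upper-quartile scaling (1.25), and in Nlrp3-/- BMDMs after median-ratio scaling (1.03). The cause was not tested.

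Libraries with the same replicate number did not deviate together (r from -0.057 to 0.053 over 18 pairs). With the replicate number as a block, the called members were 4, 3, 1, 1 and 0, the same numbers as without it, but by adjusted p alone Csf2rb no longer passed in the interaction (-0.63, limma adjusted p = 0.0558) or between genotypes without stimulation (0.37, limma adjusted p = 0.0666). Csf2 has no value under a filter of FPKM at least 5. At under 0.1 FPKM in every control library, differences of Csf2 and Csf3 between unstimulated groups were not detectable, and the depth in reads is unknown.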
